A study of Rattus norvegicus with 15 samples.

Results

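Cytochrome P450 genes, named Cyp followed by a family number, were followed along the digestive tract of the rat. Every non-control probe whose gene name in the scanner files began with Cyp and a number was taken, 82 probes of 41012 on the array, and each gene was read from its brightest probe. These probes named 70 genes of 17 families, of 34962 names on the array, and 68 of them passed the filter on dim probes, among 33104 genes tested. Cyp11a1, which starts steroid hormone synthesis, and Cyp7a1, which starts bile acid synthesis, did not pass. Another 13 members passed only because their probe was well above background in all 3 stomach samples, where the scanner software had used a lower limit, so the members tested are not all members.

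The samples were suspensions of mucosal cells from 5 places, stomach, duodenum, jejunum, ileum and colon, 3 per segment and 15 in all, of male Sprague Dawley rats; the labels of ileum 3 gave neither strain nor sex. The labels name no genotype, treatment or age that sets the segments apart. Segments had been everted, digested briefly with pronase and elutriated, so other mucosal cells could remain among the epithelial cells. Each sample was 1 labelled RNA isolation, and since no label said that isolations came from separate animals, p-values measure only the spread between isolations.

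P450 enzymes are haem proteins that insert an oxygen atom into their substrate, most of them in the endoplasmic reticulum with electrons from the reductase Por, the mitochondrial ones with electrons from ferredoxin. Families 1 to 3 oxidise drugs, toxins and some lipids, family 4 hydroxylates fatty acids and eicosanoids, and the higher families make or break down sterols, bile acids, steroid hormones, vitamin D and retinoic acid. In the gut the small bowel is known for P450 activity on swallowed compounds, which the receptors Ahr and Nr1i2 (PXR) can raise.

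Levels are log2 processed intensities minus the 75th percentile of the same sample, so that 0 marks that percentile. A level describes 1 probe and is compared only with the same probe in other samples, never with another gene. Differences are given on the log2 scale, each with its standard error (SE) from limma, and a gene was called at a Benjamini-Hochberg adjusted p under 0.05 over all genes tested. In these bulk suspensions, fewer cells of a type and less RNA per cell cannot be told apart.

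The probes of related members share little sequence with each other; whether a probe also matches a related transcript was not tested. Of 3305 pairs of probes for different members, 0 shared an exact run of 20 bases or more, and the longest run was 13 bases, between Cyp2d4 and Cyp2d5 and between Cyp2b2 and Cyp2b21. The 4 probes of the Cyp2d subfamily, drug-oxidising enzymes, are shown because 2 of them moved in opposite directions in the colon, and those of Cyp19a1 and Cyp2c23 because they marked the stomach. Sequences are those in the scanner files, 60 bases each, 5′ to 3′, and capitals mark the longest run shared with another Cyp2d probe or, for the last pair, with any other member's probe.
Cyp2d2: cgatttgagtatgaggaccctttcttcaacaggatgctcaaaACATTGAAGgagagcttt
Cyp2d3: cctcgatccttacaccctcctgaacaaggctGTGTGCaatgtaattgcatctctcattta
Cyp2d4: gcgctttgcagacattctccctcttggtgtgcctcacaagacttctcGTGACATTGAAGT
Cyp2d5: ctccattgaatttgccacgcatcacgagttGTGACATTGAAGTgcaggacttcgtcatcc
Cyp19a1: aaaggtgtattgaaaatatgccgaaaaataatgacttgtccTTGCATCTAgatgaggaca
Cyp2c23: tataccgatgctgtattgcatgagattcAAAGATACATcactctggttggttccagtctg

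Samples carried the markers of their segment. The mean level of 9 stomach markers was 5.08 to 5.89 in the stomach and at most 0.60 elsewhere, and that of 10 markers of absorptive small bowel cells was 1.5 to 5.48 in the small bowel and -2.68 to -1.41 in the stomach and colon. Jejunum 1 stood apart: its absorptive mean was 5.48 against 3.43 and 3.51 in jejunum 2 and 3. Ileum 2 also stood apart, at 3.00 against 1.5 and 1.56 in ileum 1 and 3. Detection differed as well. The share of probes well above background was 44.2% in ileum 1, 52.2% in jejunum 1, 95.4% to 97.1% in the stomach and 64.6% to 92.4% elsewhere. Of the 70 members, 32 were well above background in ileum 1 and 42 in jejunum 1. Levels below -1.78 in ileum 1 or -2.74 in jejunum 1 were not well above background. The mean of 7 fibroblast and matrix genes was 1.34 to 1.49 in the stomach and -2.65 to -0.92 in the other segments, and that of 6 immediate early and stress genes was -0.32 to -0.18 in the stomach and 2.89 to 5.31 in the others. Endothelial markers had a mean of 0.21 to 0.59 in the stomach and -1.85 to -0.87 elsewhere. Hepatocyte markers had a mean of -1.75 to -1.61 in the colon and -1.35 to -0.69 elsewhere, and 5 of 10 were lower and 1 higher in the colon than in the small bowel. The stomach samples were scanned on a day of their own, at 10 micron and with older software, where the others were scanned at 5 micron. The ileum and colon samples also had scan days that no other segment shared, and the colon samples shared 1 slide. The stomach and the colon each had a scanner software version of their own, and ileum 2 and 3 shared a version that no other sample had. All ileum samples were labelled with Cy3, so the dye term in ileum contrasts rests on the other segments. So scan day cannot be told apart from stomach, ileum or colon, nor slide from colon, nor software version from stomach or colon. Duodenum and jejunum shared scan days, arrays and software version.

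Across the 5 segments, 26 of 68 members differed in the limma F test (38.2%), against 42.2% of all genes. By their highest mean level, 6 of the 26 were stomach genes, 11 jejunal, 1 ileal and 8 colonic, and 0 had their highest mean in the duodenum. Among all genes tested, the shares called with that segment highest were 15.1% (stomach), 3.89% (duodenum), 5.67% (jejunum), 4.51% (ileum) and 13% (colon); the members' shares in that order were 8.82%, 0%, 16.2%, 1.47% and 11.8%. In 10 of the 11 jejunal members the highest single sample was jejunum 1. Without jejunum 1, 25 members were called and 11 of them, the same genes, still had their highest mean in the jejunum.

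**Figure D1:**
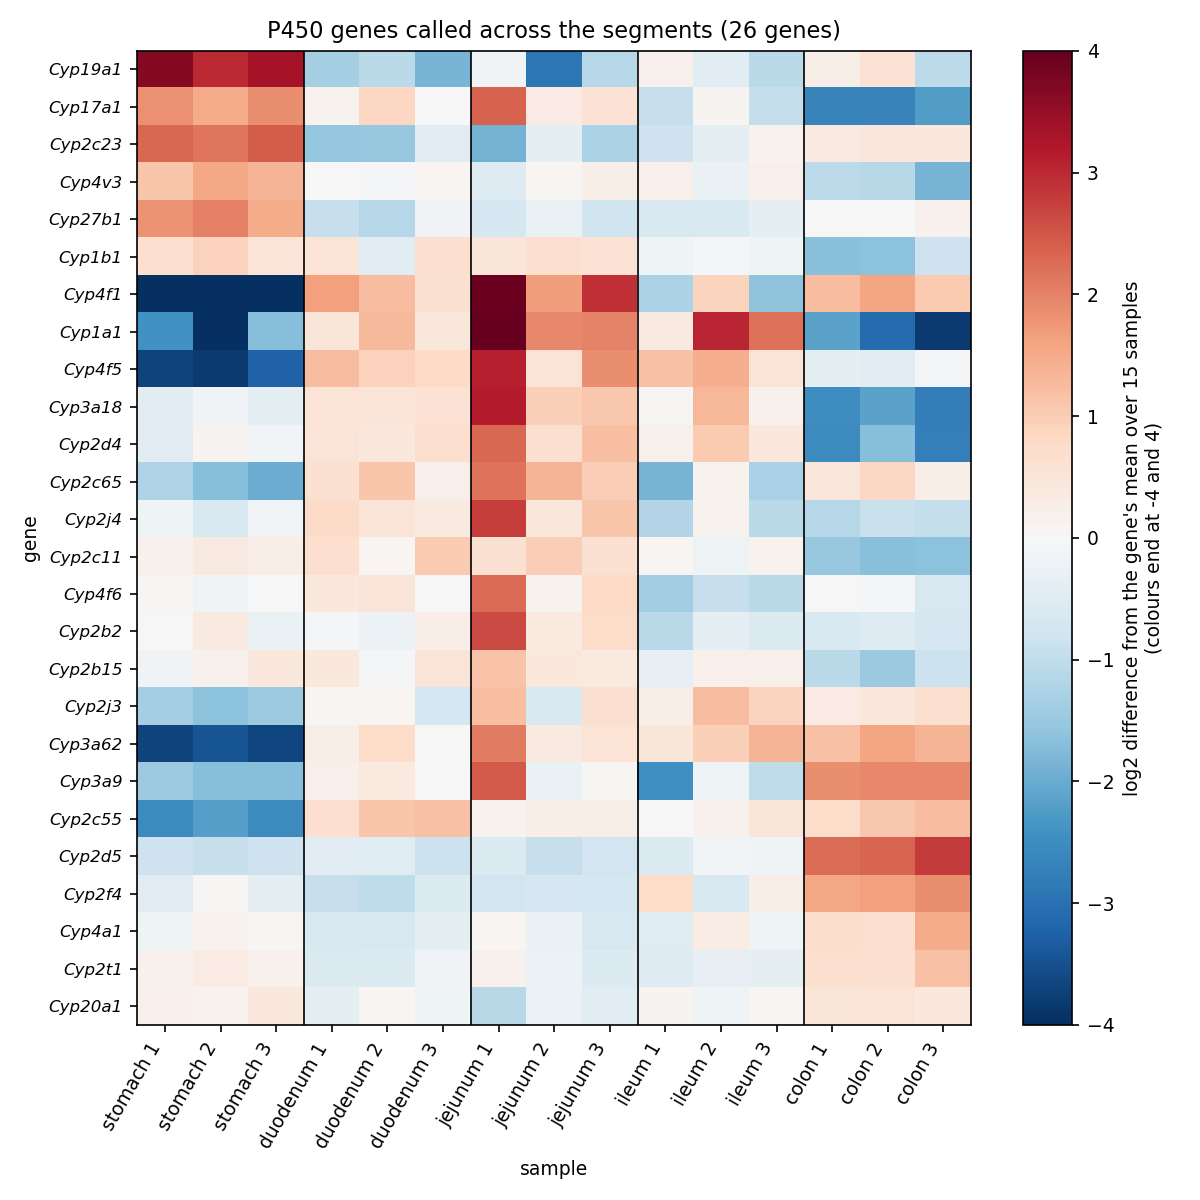
Heatmap of the 26 members called across the segments (rows) in the 15 samples (columns), coloured by the log2 difference from each gene's own mean over the samples, with colours ending at -4 and 4. Rows are grouped by the segment of the highest mean: 6 stomach, 11 jejunum, 1 ileum and 8 colon genes, and jejunum 1 is the darkest red sample in most of the jejunal rows.

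In the stomach, against the mean of duodenum, jejunum and ileum (9 samples), 12 members were lower (17.6% of the 68, against 11.7% of all genes) and 9 were higher (13.2%, against 15.7%). The members' median difference was 0.28, and that of all genes 0.29. Of the called members 42.9% were higher, against 57.2% of all called genes. With only probes well above background in all 15 samples these shares were 40% and 39.1%. With normexp background correction they were 40% and 48.6%. The largest falls were in fatty acid hydroxylases and in enzymes of families 1 to 3: Cyp4f1, Cyp4f5, Cyp1a1, Cyp3a62 and Cyp2c55. The largest rises were in aromatase, Cyp19a1, in the arachidonic acid epoxygenase Cyp2c23 and in Cyp27b1, which makes active vitamin D.

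Cyp4f1, a hydroxylase of fatty acids and leukotrienes, had the widest range of all members. It measured -0.57, -0.47 and -0.14 (stomach), 5.88, 5.46 and 4.83 (duodenum), 8.14, 5.91 and 7.14 (jejunum), 2.98, 5.12 and 2.63 (ileum) and 5.47, 5.81 and 5.27 (colon). The stomach lay below every other sample, and the ileum below the jejunum without overlap. The stomach was 53.4-fold below the small bowel (difference -5.74, SE 0.47, limma adjusted p = 6.44e-08).

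Its relative Cyp4f5 measured -2.95, -3.06 and -2.48 (stomach), 2.00, 1.67 and 1.54 (duodenum), 3.85, 1.29 and 2.62 (jejunum), 1.93, 2.21 and 1.31 (ileum) and 0.39, 0.31 and 0.66 (colon). All stomach samples were lowest, and the colon lay between them and the small bowel. The stomach difference was -4.88 (SE 0.39, limma adjusted p = 5.26e-08), a 29.4-fold fall, and the colon difference -1.60 (SE 0.49, limma adjusted p = 0.0236), a 3.03-fold fall whose call was lost without colon 1, colon 3 or duodenum 3. The third called gene of the subfamily, Cyp4f6, did not share the fall in the stomach: it measured 2.91, 2.69 and 2.82 there, 3.27, 3.36 and 2.83 (duodenum), 5.11, 2.98 and 3.62 (jejunum), 1.45, 1.92 and 1.76 (ileum) and 2.84, 2.76 and 2.21 (colon). Its lowest samples were the 3 of the ileum. Cyp4f4 and Cyp4f18 were not called in any comparison, with segment means of -1.40 to -0.30 and -4.78 to -3.79.

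The Cyp2j enzymes, epoxygenases of arachidonic acid, parted in the same way. Cyp2j3 measured -0.91, -1.17 and -1.01 (stomach), 0.54, 0.54 and -0.25 (duodenum), 1.66, -0.16 and 1.1 (jejunum), 0.69, 1.70 and 1.35 (ileum) and 0.77, 0.92 and 1.09 (colon). Every stomach sample was below every bowel sample (difference -1.83, SE 0.31, limma adjusted p = 0.000237); a second, dimmer probe for Cyp2j3 gave segment means of -2.72 in the stomach and -2.22 to -1.78 in the small bowel, a smaller gap, and of -2.63 in the colon. Cyp2j4 measured 3.22, 2.80 and 3.30 (stomach), 4.17, 3.92 and 3.75 (duodenum), 6.15, 3.85 and 4.51 (jejunum), 2.22, 3.54 and 2.32 (ileum) and 2.26, 2.51 and 2.44 (colon). It was highest in jejunum 1 and low in the ileum and colon.

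Cyp4v3, another fatty acid hydroxylase, was highest in the stomach: -0.97, -0.54 and -0.74 there, -2.06, -2.13 and -2 (duodenum), -2.60, -2.02 and -1.84 (jejunum), -1.88, -2.34 and -1.89 (ileum) and -3.14, -3.18 and -3.95 (colon). The segments formed 3 steps without overlap, stomach above small bowel above colon. It was 2.52-fold higher in the stomach (1.33, SE 0.29, limma adjusted p = 0.00203) and 2.54-fold lower in the colon (-1.34, SE 0.36, limma adjusted p = 0.0118) than in the small bowel; with normexp background correction the colon difference was -0.11 and not called. Of the 15 tested genes of family 4, Cyp2j and Cyp2u1 together, 1 was higher and 3 lower in the stomach. Over all genes these shares were 15.7% and 11.7%. In the colon 2 of the 15 were higher and 3 lower, beside 12.5% and 13.2% of all genes. Cyp2j genes are counted with family 2 as well.

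Cyp1a1, which oxidises polycyclic aromatic compounds and is the best known target of Ahr, had low signals outside the small bowel. It measured -5.24, -7.05 and -4.51 (stomach), -2.33, -1.53 and -2.36 (duodenum), 2.81, -0.90 and -0.82 (jejunum), -2.46, 0.24 and -0.60 (ileum) and -4.97, -5.90 and -6.65 (colon). Its probe was well above background in 1 of 3 stomach samples, in 8 of 9 small bowel samples and in 0 of 3 colon samples. Small bowel samples all exceeded those of stomach and colon. The fitted fall in the stomach was 26.3-fold (-4.72, SE 0.75, limma adjusted p = 0.000131), and the colon was at least 13.9-fold below the small bowel (fitted difference -4.80, SE 0.94, limma adjusted p = 0.00132). Without jejunum 1 the fitted differences were -4.34 in the stomach and -4.58 in the colon.

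Of the other family 1 genes, Cyp1b1 was also lower in the colon, and neither was called in the stomach. Cyp1b1, which oxidises oestrogens and aromatic compounds outside the liver, had means of 0.03 (stomach), -0.41 (duodenum), -0.10 (jejunum), -0.81 (ileum) and -2.04 (colon), where it was 2.99-fold lower than in the small bowel (-1.58, SE 0.35, limma adjusted p = 0.00316). A second, dimmer probe of Cyp1b1 had means of -3.19 in the stomach, -5.33 to -4.86 in the small bowel and -6.42 in the colon. Its gap between stomach and small bowel was wider and was not tested. Cyp1a2 was not called in any comparison, with segment means of -1.68 to -0.90. Of 6 other Ahr target genes tested, 1 was higher and 3 lower in the stomach, beside 15.7% and 11.7% of all genes. Ahr itself was not called in any contrast, and its part in these differences was not tested. The conjugating enzyme Gsta2, a target of Ahr and of PXR, had the largest difference of these lists in the stomach, -8.89 (SE 0.42, limma adjusted p = 7.46e-11).

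In the Cyp3a subfamily, which oxidises many drugs and steroids, 3 of 5 tested genes were lower in the stomach and 0 higher. Over all genes these shares were 11.7% and 15.7%. In the colon 1 of these 3 was higher, 1 lower and 1 not called, beside 12.5% of all genes higher and 13.2% lower. Cyp3a62 measured -2.39, -2.14 and -2.34 (stomach), 1.56, 2.04 and 1.32 (duodenum), 3.39, 1.67 and 1.86 (jejunum), 1.79, 2.28 and 2.67 (ileum) and 2.48, 2.91 and 2.68 (colon). Bowel samples lay between 1.32 and 3.39, all above the stomach samples, which were 20.4-fold below the small bowel (-4.35, SE 0.30, limma adjusted p = 8.64e-09).

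Cyp3a9 measured 0.30, 0.05 and 0.04 (stomach), 1.96, 2.13 and 1.74 (duodenum), 4.19, 1.47 and 1.79 (jejunum), -0.69, 1.57 and 0.73 (ileum) and 3.60, 3.66 and 3.68 (colon). Only jejunum 1 exceeded the colon samples, which were 4.27-fold above the small bowel mean (2.09, SE 0.59, limma adjusted p = 0.0155). Ileum 1 lay below the stomach samples, which were 2.88-fold lower than the small bowel (-1.52, SE 0.47, limma adjusted p = 0.0226).

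Cyp3a18 went the other way in the colon. It measured -0.41, -0.12 and -0.38 (stomach), 0.57, 0.54 and 0.60 (duodenum), 3.15, 0.97 and 1.09 (jejunum), 0.05, 1.35 and 0.19 (ileum) and -2.47, -2.11 and -2.75 (colon). Colon samples were lowest without overlap, 9.84-fold below the small bowel (-3.30, SE 0.50, limma adjusted p = 0.000146), and stomach samples came next (-1.25, SE 0.40, limma adjusted p = 0.0266). The stomach calls of Cyp3a9 and Cyp3a18 were lost without any single stomach sample, and the colon call of Cyp3a9 without colon 3. Cyp3a2 and Cyp3a23-3a1 were not called; the latter was well above background in 4 samples. PXR, Nr1i2, which drives Cyp3a genes, was 2.79-fold lower in the stomach (-1.48, SE 0.24, limma adjusted p = 0.000189) and was not called in the colon (0.70, SE 0.31, adjusted p = 0.103). Of 8 other PXR and CAR target genes, 5 were lower and 2 higher in the stomach, beside 11.7% and 15.7% of all genes. In the colon 3 were lower and 0 higher, beside 13.2% and 12.5%. Whether PXR had a part in these differences was not tested.

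Of the 4 Cyp2d genes whose probes are shown above, Cyp2d5 was higher and Cyp2d4 and Cyp2d2 were lower in the colon. Cyp2d4 measured 0.36, 0.88 and 0.67 (stomach), 1.30, 1.19 and 1.44 (duodenum), 3.06, 1.41 and 1.99 (jejunum), 0.95, 1.81 and 1.18 (ileum) and -1.79, -0.92 and -1.96 (colon). Colon samples were lowest, 8.93-fold below the small bowel (-3.16, SE 0.43, limma adjusted p = 5.87e-05). A second, dimmer probe of Cyp2d4 showed a smaller gap, with means of -2.26 in the colon and -1.63 to -1 in the small bowel. Cyp2d5 had means of -1.89 (stomach), -1.62 (duodenum), -1.78 (jejunum), -1.31 (ileum) and 1.42 ± 0.30 (colon, SD, n = 3). It was 7.88-fold higher in the colon than in the small bowel (2.98, SE 0.29, limma adjusted p = 1.6e-06), and no colon sample overlapped another segment. Cyp2d2 was 2.12-fold lower in the colon with overlapping samples (-1.08, SE 0.39, limma adjusted p = 0.0486), a call lost in 19 of 27 alternatives and close to 0 with normexp background correction (-0.07). Cyp2d3 was not called.

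**Figure D2:**
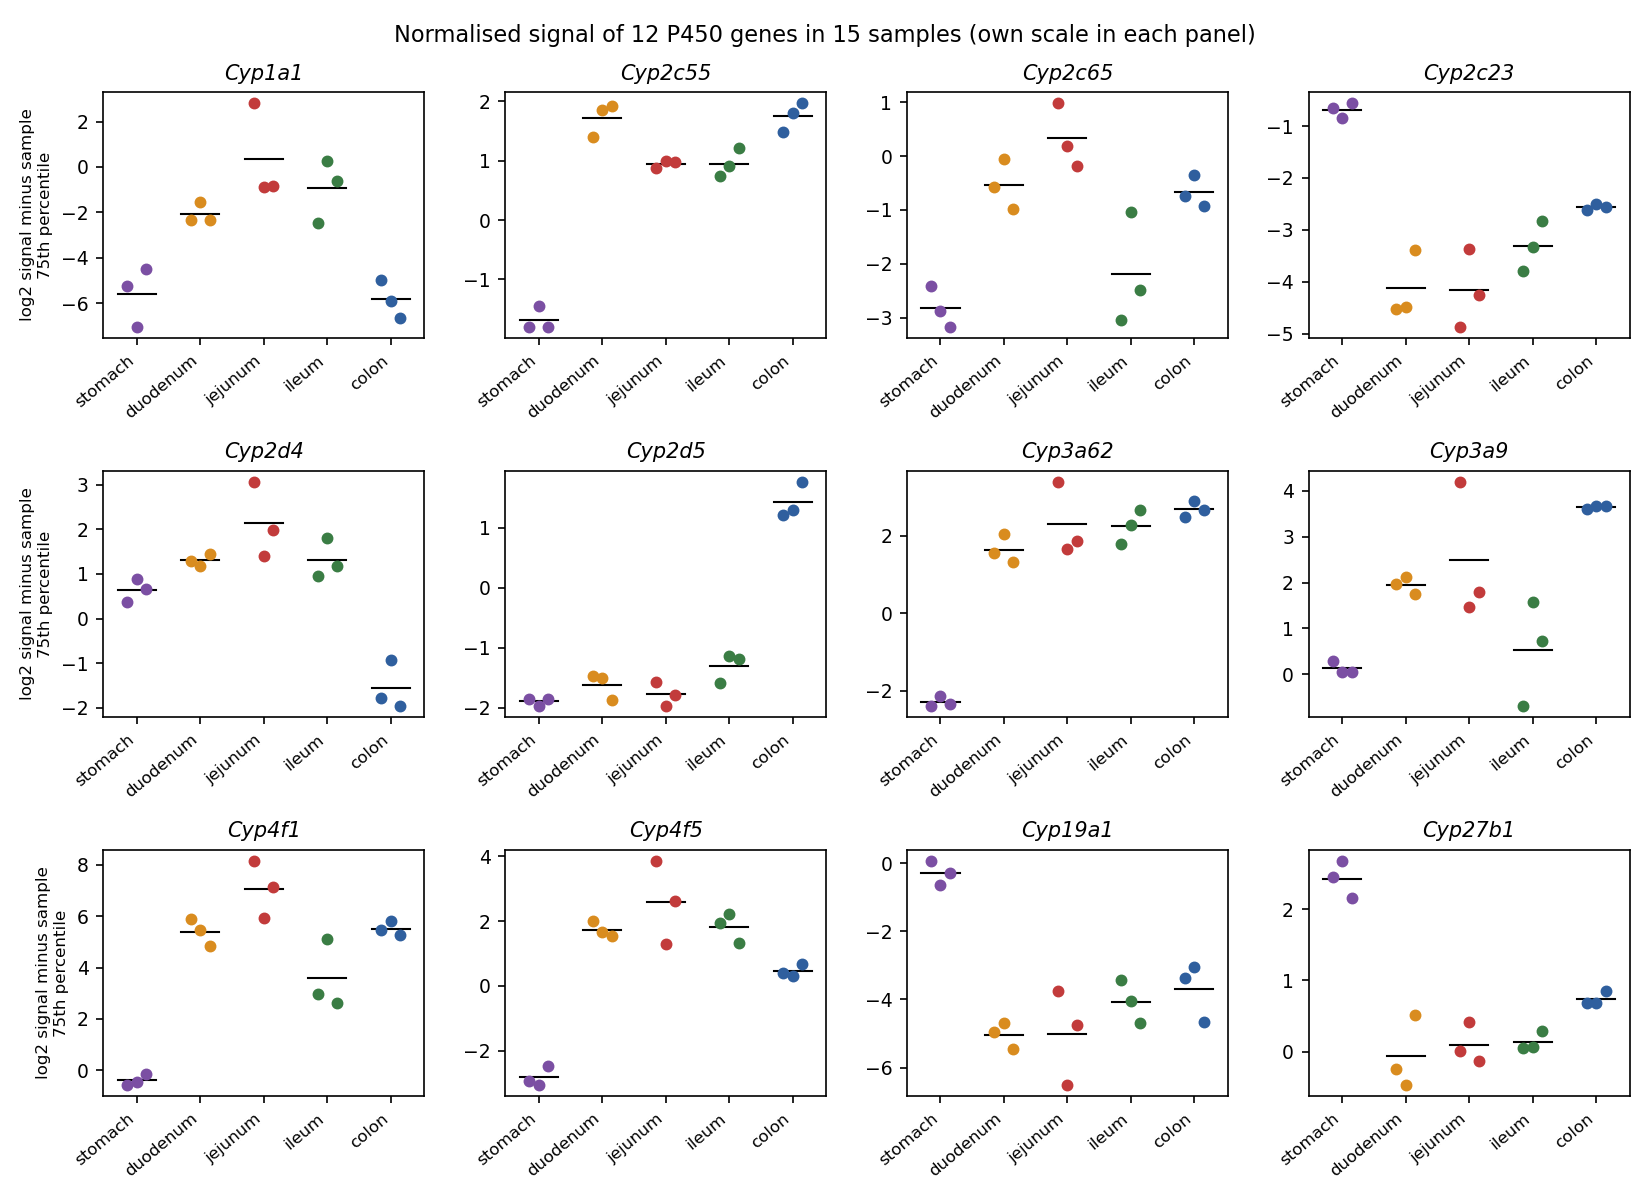
Levels of 12 members by sample (points) with the segment mean (black line); the vertical axis is the log2 processed intensity minus the sample's 75th percentile and differs between panels. Stomach points are lowest in Cyp4f1, Cyp4f5, Cyp3a62 and Cyp2c55 and highest in Cyp19a1, Cyp27b1 and Cyp2c23, and colon points are lowest in Cyp2d4 and highest in Cyp2d5; points of Cyp19a1 outside the stomach are not well above background in all but 2 colon samples.

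Among the Cyp2c genes, which oxidise drugs and arachidonic acid, the stomach set Cyp2c23 apart from Cyp2c55 and Cyp2c65. Cyp2c23 measured -0.66, -0.84 and -0.56 (stomach), -4.52, -4.49 and -3.38 (duodenum), -4.87, -3.36 and -4.25 (jejunum), -3.79, -3.34 and -2.83 (ileum) and -2.61, -2.51 and -2.56 (colon). Stomach samples were all above the colon samples and these above the small bowel samples, of which 5 of 9 were well above background. It was 9.06-fold higher in the stomach (3.18, SE 0.34, limma adjusted p = 1.91e-06).

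Cyp2c55 had means of -1.68 (stomach), 1.72 (duodenum), 0.94 (jejunum), 0.95 (ileum) and 1.76 (colon), and its stomach samples lay 7.43-fold below the small bowel without overlap (-2.89, SE 0.19, limma adjusted p = 5.74e-09). Cyp2c65 had means of -2.83, -0.54, 0.33, -2.18 and -0.67 in the same order, and was 4.08-fold lower in the stomach (-2.03, SE 0.37, limma adjusted p = 0.000442), with the ileum overlapping the stomach. Cyp2c11, the main P450 of the male rat liver, had means of 1.36 to 2.08 from stomach to ileum and -0.25 in the colon, where it was 4.02-fold lower (-2.01, SE 0.25, limma adjusted p = 2.5e-05). The median colon difference of the 10 hepatocyte markers was -0.73, and their part in this result was not tested. Cyp2c13, a liver enzyme, was 1.99-fold higher in the stomach (0.99, SE 0.31, limma adjusted p = 0.0249), a call lost without stomach 2 or 3. In the stomach, 2 of 9 tested Cyp2c genes were higher and 2 lower, beside 15.7% and 11.7% of all genes.

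Of 6 steroid hormone enzymes tested, 3 were higher in the stomach and 0 lower, beside 15.7% and 11.7% of all genes; Cyp19a1, among the 3, passed the filter only through the stomach. Cyp19a1, aromatase, converts androgens to oestrogens and is known from parietal cells of the rat stomach. It measured 0.06, -0.64 and -0.30 (stomach), -4.95, -4.70 and -5.47 (duodenum), -3.76, -6.51 and -4.75 (jejunum), -3.44, -4.06 and -4.70 (ileum) and -3.38, -3.04 and -4.67 (colon). Its probe was well above background in every stomach sample, where the software's limit was lower, and in 0 of 9 small bowel samples. The stomach was at least 11.8-fold higher (fitted difference 4.41, SE 0.53, limma adjusted p = 6.2e-06), and the call was also made with no filter on dim probes.

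Cyp17a1, which turns pregnane steroids into androgens, measured 4.46, 4.12 and 4.48 (stomach), 2.75, 3.44 and 2.63 (duodenum), 4.98, 2.95 and 3.19 (jejunum), 1.69, 2.72 and 1.66 (ileum) and -0.05, -0.06 and 0.38 (colon). Jejunum 1 was the highest sample, and the colon was lowest without overlap. The stomach was 2.76-fold higher than the small bowel (1.46, SE 0.35, limma adjusted p = 0.00419) and the colon 6.92-fold lower (-2.79, SE 0.44, limma adjusted p = 2e-04). Cyp11b3, a steroid hydroxylase, was 2.17-fold higher in the stomach (1.12, SE 0.37, limma adjusted p = 0.0331), a call lost without stomach 1, 2 or 3. Markers of steroid-making cells had a mean of -2.60 to -2.47 in the stomach and -3.65 to -1.60 in the other samples.

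Of 4 tested vitamin D enzymes, 2 were higher and 1 lower in the stomach, beside 15.7% and 11.7% of all genes. Cyp27b1, which completes the synthesis of active vitamin D, measured 2.46, 2.68 and 2.16 (stomach), -0.24, -0.47 and 0.52 (duodenum), 0.01, 0.41 and -0.13 (jejunum), 0.05, 0.07 and 0.29 (ileum) and 0.68, 0.68 and 0.85 (colon). All stomach samples exceeded all others, by 5.20-fold over the small bowel mean (2.38, SE 0.22, limma adjusted p = 2.95e-07). The vitamin D 25-hydroxylase Cyp2r1 was 2.34-fold higher in the stomach with overlapping samples (1.22, SE 0.40, limma adjusted p = 0.031), a call lost without stomach 1 or 2. Cyp24a1, which inactivates vitamin D, was not called in any comparison, and the vitamin D receptor Vdr was 2.58-fold lower in the stomach, with jejunum 1 within the stomach range (-1.37, SE 0.31, limma adjusted p = 0.0032). The fibroblast and matrix genes (6 of 7 called higher) and the endothelial markers (3 of 4) were also higher in the stomach, and their part in these stomach differences was not tested.

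Smaller differences in the stomach concerned sterol enzymes and Cyp2b3. Of 6 tested genes of cholesterol, oxysterol and bile acid synthesis, 2 were lower in the stomach and 0 higher. Over all genes these shares were 11.7% and 15.7%. The 2 lower genes were Cyp27a1, the sterol 27-hydroxylase (-0.84, SE 0.29, limma adjusted p = 0.0432), and Cyp51, which demethylates lanosterol (-0.73, SE 0.25, limma adjusted p = 0.0392). Both calls were lost without any single stomach sample. Cyp2b3 was 2.40-fold higher in the stomach (1.26, SE 0.38, limma adjusted p = 0.0197), also a call lost without any single stomach sample. Cyp2d4 was 1.94-fold lower there (-0.95, SE 0.35, limma adjusted p = 0.0498), a call lost in 15 of 28 alternatives, among them leaving out stomach 1, 2 or 3. Neither of the 2 tested genes of retinoic acid breakdown, Cyp26a1 and Cyp26b1, was called in a comparison.

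**Figure D3:**
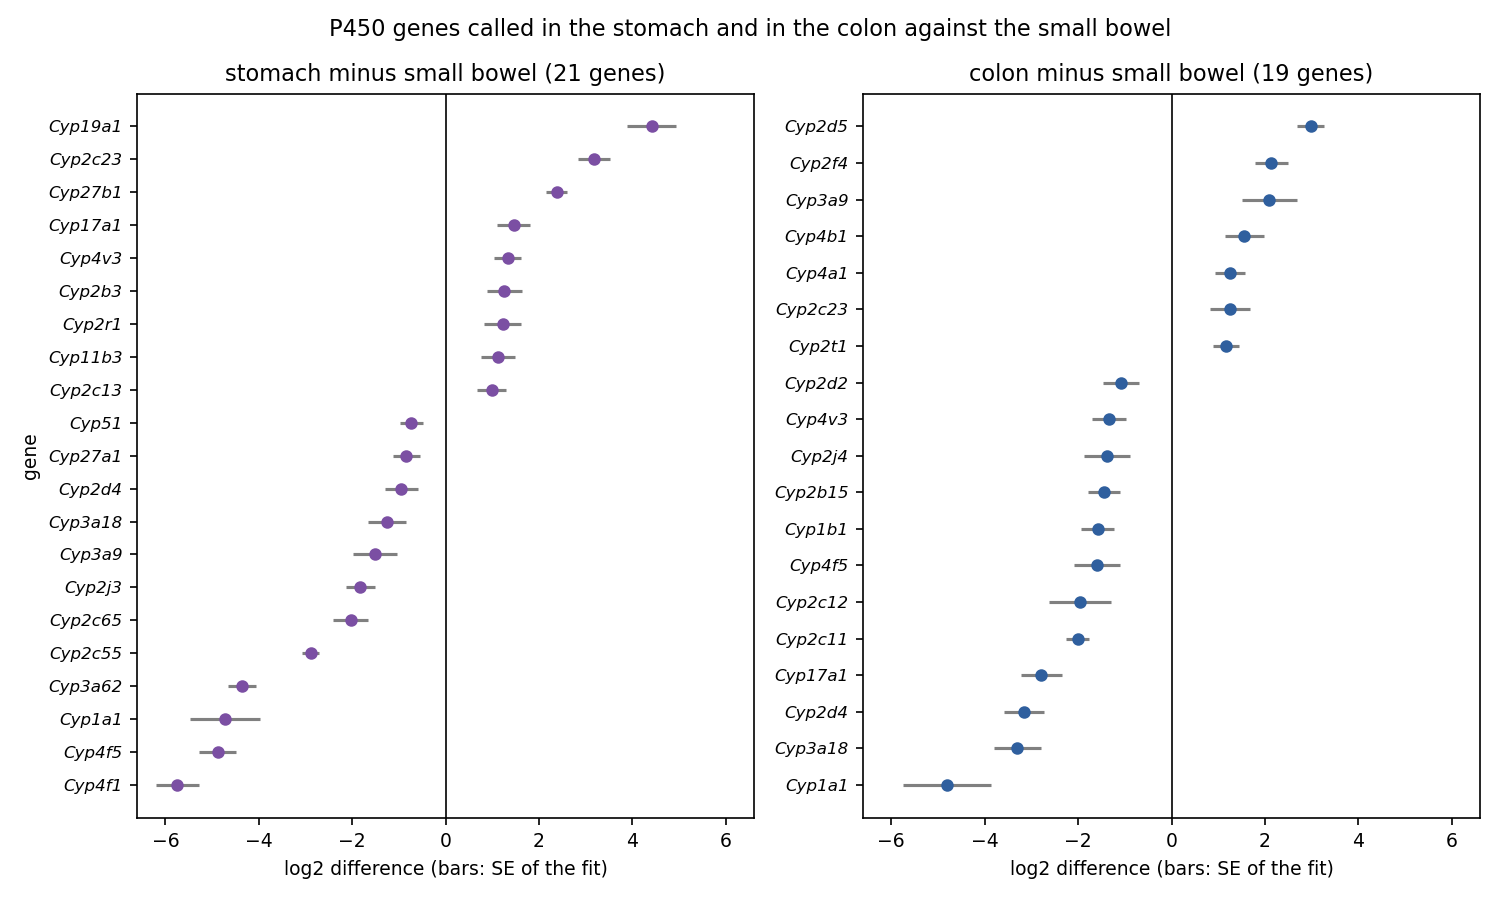
Log2 differences (points) with the SE of the limma fit (bars) for the members called in the stomach (21 genes, left) and in the colon (19 genes, right), each against the mean of duodenum, jejunum and ileum. Cyp4f1 and Cyp19a1 mark the ends on the left, at -5.74 and 4.41, and Cyp1a1 and Cyp2d5 on the right, at -4.80 and 2.98.

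In the colon, against the same small bowel samples, 12 members were lower (17.6%, against 13.2% of all genes) and 7 higher (10.3%, against 12.5%), with a median of -0.13 against 0 for all genes. With normexp background correction the same comparison called 13 members higher and 10 lower, and 66.5% of all called genes higher in place of 48.6%. Both comparisons use the same small bowel samples and so are not independent. Beside Cyp2d5 and Cyp3a9, the members higher in the colon were Cyp2f4 (2.14, SE 0.36, limma adjusted p = 0.000383) and Cyp4b1 (1.56, SE 0.42, limma adjusted p = 0.0128), enzymes known for activating toxins in the lung, the fatty acid hydroxylase Cyp4a1 (1.25, SE 0.32, limma adjusted p = 0.00857), Cyp2c23 (1.25, SE 0.43, limma adjusted p = 0.0414) and Cyp2t1 (1.17, SE 0.28, limma adjusted p = 0.00541). Cyp2f4 had means of -2.73 to -1.78 in the small bowel and -0.22 in the colon, without overlap of samples.

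The members lower in the colon beside those above were Cyp2b15 (-1.44, SE 0.34, limma adjusted p = 0.00486), Cyp2j4 (-1.38, SE 0.49, limma adjusted p = 0.0457) and Cyp2c12 (-1.96, SE 0.67, limma adjusted p = 0.0419). The colon calls of Cyp2j4, Cyp2c12 and Cyp2c23 were lost in 12 of 28, 13 of 27 and 10 of 27 alternatives, among them leaving out colon 1 or colon 3, and with normexp the difference of Cyp2c12 was -0.04. Samples of Cyp2j4 and Cyp2c12 overlapped between colon and small bowel, Cyp2c12 was well above background in 1 of 3 colon samples, and its value in stomach 3 was missing from the fit. Probe names for Cyp2b2 and Cyp2b15 differed between the annotation versions in the files, so which of these closely related genes each probe reads is uncertain.

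Within the small bowel the members differed less. Between duodenum and jejunum limma called 0 members in either direction, while 0.248% of all genes were called higher and 0.275% lower; at an unadjusted p under 0.05, 1 member was higher and 13 were lower in the duodenum, beside 4.38% and 4.15% of all genes. The members' median difference was -0.18 and that of all genes -0.02. Each duodenal sample shared an array with a jejunal one, and duodenum 2 minus jejunum 1 was the largest of the 3 array differences in most members named here. For Cyp1a1 the 3 differences were -4.34, -1.46 and -1.50, and for Cyp4f1 -2.68, -1.08 and -1.26, lower in the duodenum on each array (limma adjusted p = 0.285 and 0.161). For Cyp2c55 they were 0.99, 0.93 and 0.42, higher in the duodenum on each (adjusted p = 0.142). Without jejunum 2, 10 members were called lower in the duodenum, Cyp1a1, Cyp4f1, Cyp4f5, Cyp4f6, Cyp2j3, Cyp2j4, Cyp2b2, Cyp2b21, Cyp2d4 and Cyp3a18. Calls of all genes rose as well, from 82 higher and 91 lower to 517 and 629. Without jejunum 1, 0 members were called lower, beside 67 of all genes.

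**Figure D4:**
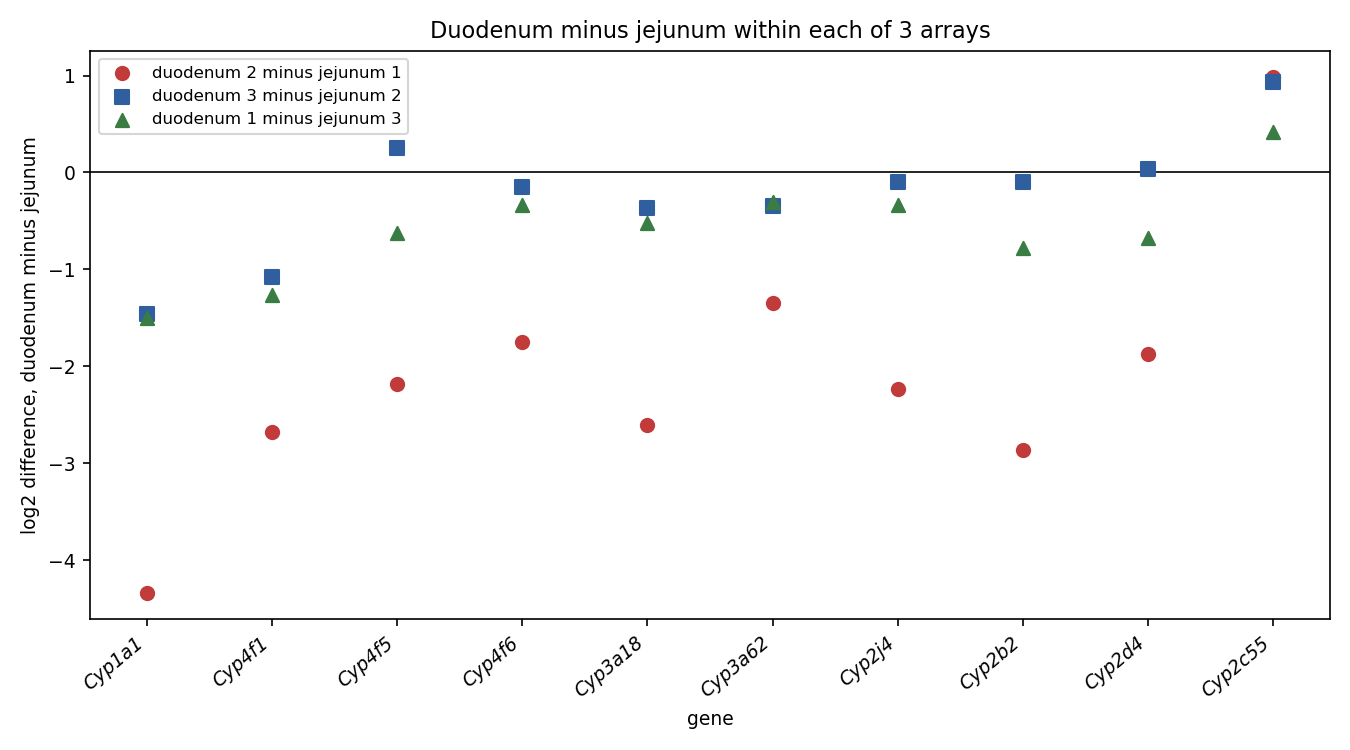
Log2 difference, duodenum minus jejunum, of 10 members on each of the 3 arrays that held a sample of both segments; the genes were chosen after their values were seen. For 9 of the 10 the array with jejunum 1 gave the lowest value, and Cyp2c55 was above 0 on all 3 arrays.

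Between ileum and jejunum, 6 members were lower in the ileum (8.82%, against 2.84% of all genes) and 0 higher (against 1.5%). At an unadjusted p under 0.05, 5 were higher and 13 lower, beside 11.1% and 10.4% of all genes. Cyp4f1 was 11.4-fold lower in the ileum (-3.52, SE 0.57, limma adjusted p = 0.00269), Cyp2c65 6.04-fold (-2.59, SE 0.45, adjusted p = 0.00424) and Cyp4f6 4.85-fold (-2.28, SE 0.39, adjusted p = 0.00385). Cyp2j4 (-2.18, SE 0.47, limma adjusted p = 0.0165), Cyp2b2 (-2, SE 0.46, adjusted p = 0.0224) and Cyp17a1 (-1.70, SE 0.42, adjusted p = 0.0324) followed, and in none of the 6 did the samples overlap. The share of all called genes without overlap was not counted, so this adds nothing to the calls. Cyp2c65 was well above background in 2 of 3 ileum samples.

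Leaving out single samples ended some of these 6 calls. Without jejunum 1, Cyp4f1 (-2.88, SE 0.56, limma adjusted p = 0.0175), Cyp4f6 (-1.65, SE 0.29, adjusted p = 0.00872) and Cyp2c65 (-2.38, SE 0.50, adjusted p = 0.0273) were still called, and Cyp2j4, Cyp2b2 and Cyp17a1 were not (adjusted p = 0.0589, 0.062 and 0.165). Without ileum 1 or ileum 3, 3 members were called, and without jejunum 2, 11 lower and 1 higher. Calls of all genes moved too, from 941 lower and 496 higher to 1883 and 1701 without jejunum 2. They were 357 and 283 without ileum 1, and 360 and 146 without ileum 3. In jejunum 1 and ileum 2 the absorptive markers were high as well; their part in these differences was not tested. The nuclear receptor Hnf4a, a driver of P450 genes in liver and gut, was 3.82-fold lower in the ileum than in the jejunum (-1.93, SE 0.33, limma adjusted p = 0.00371) and 2.52-fold lower in the duodenum (-1.33, SE 0.26, adjusted p = 0.0292). Gata4, a factor of the proximal small bowel, was 3.87-fold lower in the ileum than in the jejunum (-1.95, SE 0.29, limma adjusted p = 0.00154). Hnf4a, Gata4, Por, Vdr and Nr1i2 were named after their values were seen.

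Between ileum and duodenum, Cyp2c65 (-1.81, SE 0.47, limma adjusted p = 0.0489) and Cyp4f6 (-1.62, SE 0.41, adjusted p = 0.0428) were lower in the ileum, 2 members (2.94%) against 1.51% of all genes, and 0 were higher, against 1.37%; at an unadjusted p under 0.05, 3 were higher and 7 lower, beside 7.66% and 7.19% of all genes. Neither call was stable: leaving out most single samples ended both.

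In all, 35 of the 68 tested members were called in at least 1 of these tests and 33 in none. The same share over all genes was not counted. By the F test alone, 42.2% of all genes and 38.2% of members were called. Of the 33, 7 were well above background in all 15 samples: Cyp1a2, Cyp21a1 (a steroid hydroxylase), Cyp2b12, Cyp2b21, Cyp4a2, Cyp4f4 and Cyp8b1 (of bile acid synthesis). The gap between the highest and lowest segment mean of the 33 ran from 0.34 in Cyp2s1 to 2.01 in Cyp2a3, with a median of 0.99. Cyp2e1, the ethanol-oxidising P450, was among them, with means of -2.83 to -1.73. Cyp20a1, an orphan P450, was called by the F test alone (limma adjusted p = 0.0444), with its lowest mean, 0.14, in the jejunum and its highest, 1.22, in the colon. Cyp2e1 and Cyp20a1 were singled out after their values were seen.

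Genes for electron transfer to P450 enzymes and for haem synthesis and breakdown were followed as a list. In the stomach, 11 of the 23 tested were lower and 3 higher, with a median of -0.64, beside 11.7% and 15.7% of all genes; in the colon 5 were higher and 2 lower, beside 12.5% and 13.2%. Haem oxygenase Hmox1, which breaks down haem, was 5.02-fold lower in the stomach (-2.33, SE 0.30, limma adjusted p = 1.32e-05), biliverdin reductase Blvra 3.95-fold (-1.98, SE 0.19, adjusted p = 6.29e-07), cytochrome b5 of the mitochondrial outer membrane Cyb5b 3.21-fold (-1.68, SE 0.20, adjusted p = 5.69e-06) and Alas1, the first enzyme of haem synthesis, 2.90-fold (-1.54, SE 0.24, adjusted p = 0.000101). The reductase Por measured -0.21, -0.30 and -0.25 (stomach), 0.71 to 1.01 (duodenum), 2.63, 1.14 and 1.05 (jejunum), 0.78 to 1.56 (ileum) and 0.27 to 0.77 (colon), and was 2.76-fold lower in the stomach, against the small bowel (-1.47, SE 0.30, limma adjusted p = 0.00121). In the colon Urod, of haem synthesis, was 3.58-fold higher (1.84, SE 0.24, limma adjusted p = 3.48e-05).

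Of 42 receptors and factors that act on P450 genes, 14 were lower and 6 higher in the stomach, beside 11.7% and 15.7% of all genes, and 8 lower and 7 higher in the colon, beside 13.2% and 12.5%. Cdx2, a factor of the intestinal epithelium, was 50.6-fold lower in the stomach (-5.66, SE 0.20, limma adjusted p = 2.8e-12), Cdx1 14.2-fold lower (-3.83, SE 0.34, adjusted p = 1.89e-07) and the oxysterol receptor Nr1h3 8.99-fold lower (-3.17, SE 0.28, adjusted p = 1.59e-07). Nr2f2, an orphan receptor also found in stromal cells, was 24.0-fold higher (4.58, SE 0.40, adjusted p = 1.65e-07). In the colon the fatty acid receptor Pparg was 8.59-fold higher (3.1, SE 0.42, adjusted p = 5.1e-05).

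Promoters were found in the RefSeq table (build GRCr8) for 55 of 70 members, as 250 bases before and 50 after the gene's start. Those of Cyp4f1 and Cyp2c55, low in the stomach, and of Cyp27b1, high there, are shown as the 250 bases before the start, 5′ to 3′ on the gene's strand; capitals mark matches to motifs searched on both strands. The stretches are chr7:12672554-12672803 on the minus strand for Cyp4f1, chr1:246421533-246421782 on the plus strand for Cyp2c55 and chr7:64756376-64756625 on the plus strand for Cyp27b1.
Cyp4f1: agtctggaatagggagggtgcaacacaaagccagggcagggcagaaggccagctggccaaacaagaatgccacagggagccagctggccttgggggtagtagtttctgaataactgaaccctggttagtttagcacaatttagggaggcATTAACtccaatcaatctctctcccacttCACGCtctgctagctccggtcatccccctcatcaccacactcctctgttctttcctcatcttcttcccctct
Cyp2c55: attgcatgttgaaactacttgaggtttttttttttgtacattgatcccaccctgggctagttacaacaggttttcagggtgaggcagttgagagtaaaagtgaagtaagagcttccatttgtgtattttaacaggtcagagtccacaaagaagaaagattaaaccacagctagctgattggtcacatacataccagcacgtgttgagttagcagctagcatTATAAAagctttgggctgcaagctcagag
Cyp27b1: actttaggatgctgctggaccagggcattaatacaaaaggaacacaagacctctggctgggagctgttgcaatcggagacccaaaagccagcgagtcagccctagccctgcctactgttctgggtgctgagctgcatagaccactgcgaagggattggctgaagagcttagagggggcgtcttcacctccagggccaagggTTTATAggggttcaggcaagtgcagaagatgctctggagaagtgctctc

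The motif of the TATA box was spelled TATAAA, that of CDX factors TTTATG, that of GATA factors AGATAA, the HNF1 core GTTAAT, the core of the Ahr element GCGTG and the HNF4 signature CAAAGTCCA. TATAAA starts 29 bases before the start of Cyp2c55 and its reverse complement 49 bases before that of Cyp27b1, and 16 of 55 member promoters hold it (29.1%), against 14.3% of 27457 promoters of the same length. In Cyp4f1 the HNF1 core lies 101 bases and the Ahr core 72 bases before the start. The Ahr core was in 29.1% of member promoters and 31.1% of all, TTTATG in 16.4% and 12.5%, AGATAA in 14.5% and 11.3%, and GTTAAT in 10.9% and 7.37%. CAAAGTCCA was in only 2 of 55 member promoters (3.64%) and in 0.375% of all. It was in 0 of the 10 promoters of members lower in the stomach and in 0 of the 5 of members higher there. Among the 10 promoters of members lower in the stomach, 1 held TTTATG (Cyp3a62), 2 AGATAA (Cyp2j3 and Cyp4f5) and 1 GTTAAT (Cyp4f1). In the promoters printed no matches overlapped.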

How the data were processed

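Intensities are the processed signals of the Agilent scanner software, background-subtracted and dye-normalised within an array per the file headers (for the colon these steps are not given in the sources used here); the authors deposited them, and the channel of the sample's labelled dye was used. The deposited value table held the same intensities within 0.02 on the log2 scale. Log2 intensities were scaled to each sample's 75th percentile, spots flagged as non-uniform or outliers left out, and probes tested that 1 segment or more showed well above background in all its samples. Background multipliers were 2.6 in the stomach and 13 in the duodenum, jejunum and ileum. Limma 3.58.1 in R 4.3.3 fitted segment and dye, with an intensity trend and slides as random effects (correlation 0.361; residual degrees of freedom, 9), across all 33104 genes; tests were two-sided. Segment was compared in an F test and 5 contrasts. The code was tested on simulated data.

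Gene names came from the scanner files (3 annotation versions, the union used) and were updated through RefSeq, which changed the name of 20 of 70 members. Where a side had 0 samples well above background, the fold is a bound at each sample's lowest signal well above background. Normexp, tried as an alternative, used the median signal in the colon, where the files held no mean signal. Every member may be named. Levels in every sample are given for members called by the F test, up to 6 per functional list. Differences were planned for up to 10 called members each way per contrast and are given for all called members. Members and lists were chosen with earlier results of these data known. The other alternatives, with the closing section giving their effect, were quantile normalisation, no or a stricter filter, no dye term, no slide block, slide as a fixed term, scan day as the block, flagged spots kept, the median probe, no trend, the deposited value table, only the segments compared, a replicate block and leaving out each sample. The number of arrays limits the precision.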

Additional observations from a re-analysis of the deposited data

How the results depend on the processing

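None of the 48 member calls reversed under any alternative run, and the direction of every call was kept. In the stomach, Cyp4f1, Cyp4f5, Cyp3a62, Cyp2c55, Cyp2c65, Cyp1a1, Cyp2j3, Cyp19a1, Cyp17a1, Cyp2c23, Cyp27b1 and Cyp4v3 kept their call under every alternative that tested them; in the colon, Cyp2d5, Cyp2d4, Cyp3a18, Cyp1a1, Cyp17a1, Cyp2c11, Cyp2f4, Cyp4b1, Cyp4a1, Cyp2t1, Cyp1b1 and Cyp2b15 did. With normexp, 13 members were higher in the colon, beside 5940 of all genes in place of 4127. Without the slide block 11 members were, beside 6421 of all genes. With scan day as the block, 5 were higher and 7 lower in the stomach. Calls of all genes fell there as well, from 5189 higher and 3882 lower to 2510 and 2443. Members lower in the ileum than in the duodenum numbered 1 with normexp, the stricter filter, flagged spots kept or the median probe, and 0 without the slide block, with scan day as the block, without the trend or with only the segments compared, which also left 0 members lower in the ileum than in the jejunum. Without 1 sample, the F test called 24 to 32 members; 5 to 12 were higher and 7 to 12 lower in the stomach (7 lower without any one stomach sample, 5 higher without stomach 2), 5 to 9 higher and 8 to 14 lower in the colon, 0 to 10 lower in the duodenum than in the jejunum (1 without duodenum 3 or ileum 2), 0 to 1 higher and 3 to 11 lower in the ileum than in the jejunum (10 without duodenum 3) and 0 to 2 lower in the ileum than in the duodenum. The numbers called over all genes also moved with the setting and with the sample left out, and the cause of these changes was not tested. With only the segments compared, 124 of all genes were lower in the ileum than in the jejunum, in place of 941. The median of all genes in the stomach comparison was 0.29, -0.06 with normexp and 0.11 with quantile normalisation, and in the colon comparison 0, 0.33 and 0.05. Samples with the same replicate number did not pair: their deviations correlated at -0.42 to 0.29, 7 of 30 pairs above 0.1, and 4 of 15 samples correlated best with their own number. The replicate block called 14 members higher in the colon, beside 6555 of all genes. It called 0 members lower in the ileum than in the duodenum, beside 115 of all genes in place of 499. Probes near background limit, among others, Cyp1a1, Cyp19a1, Cyp2c12, Cyp2c23, Cyp2r1 and Cyp4b1, whose low sides give bounds or imprecise values.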
